A study of Mus musculus with 3 samples.

Results

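Monocyte progenitors are the bone marrow cells from which monocytes form. They were picked out of single-cell RNA libraries of Kit-enriched bone marrow from C57BL/6 mice. A cell counted as a monocyte progenitor when F13a1, Ms4a6c and Ccr2 together had at least 5 unique molecular identifiers (UMIs, the count of captured transcript molecules) and when it stayed within 4 limits. These were at most 1 Siglech UMI, at most 2 UMIs over the class II genes H2-Aa, H2-Ab1 and H2-Eb1, at most 2 UMIs over C1qa, C1qb and C1qc, and fewer than 20000 Camp and Ngp UMIs per 1000000 UMIs of the cell. The rule found 2917 cells among 26415 kept cells. Of these, 625 came from the unchallenged library (steady state), 1058 from the library of mice challenged once with Escherichia coli, labelled 24 h, and 1234 from the library of mice challenged 2 times, labelled 48 h and called rechallenged here. The chosen cells are called members below.

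Each group had 1 library. No test between groups could be made, and each comparison sets one library against another. Challenge number and labelled time differ together and cannot be told apart, and the labels do not say from which moment the hours count, the age of the mice or how many animals went into a library. The source name label calls the material neutrophils and the design text counts 2 samples and names a treatment that the sample labels do not, so the sample labels were followed. The series title names infection, neutrophil defence and haematopoietic stem and progenitor cells, and the comparisons here ask how the monocyte branch of Kit-enriched marrow looked without, after 1 and after repeated challenge.

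As background, monocytes arise from progenitors that also give neutrophils. The transcription factors Irf8 and Klf4 drive the monocyte branch, Cebpe and Gfi1 the neutrophil branch, and Spi1 both. Early cells of both branches make the azurophil granule proteins Mpo, Elane, Prtn3 and Ctsg, while specific granule proteins such as Ltf, Lcn2 and Camp appear later and only in neutrophil development. Monocyte progenitors carry the receptors Csf1r and, later, Ccr2 and Cx3cr1, with which monocytes leave the marrow and follow chemokines, and infection is known to raise their output.

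The marker genes matched the label. F13a1, Ms4a6c and Ccr2 chose the cells and are given as a description only. F13a1, a transglutaminase of monocytes, stood at 280, 165 and 270 UMIs per 1000000 (CPM) in members, given throughout in the order unchallenged, challenged once, rechallenged, against 9.02, 10.00 and 19.3 CPM in all other kept cells. Ms4a6c was at 425, 224 and 302 CPM, and the chemokine receptor Ccr2 at 61.1, 70.1 and 139 CPM. Of the 3 marker genes the rule did not use, Irf8 was at 417, 254 and 274 CPM against 41.5, 53.7 and 53.3 CPM in the other cells. Ly86, a partner of the receptor Cd180, was at 131, 109 and 109 CPM against 10.1, 18.6 and 13.8 CPM. Klf4 was at 31.7, 20.2 and 47.1 CPM against 3.41, 3.77 and 5.49 CPM. All 3 were higher in the members of every library. Since the cells were chosen by their transcripts, these gaps describe the choice and test nothing.

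The next genes in the order of the mean log2 ratio over other kept cells were Lgals1, Tifab, Emb, Csf1r, Glipr1, C1galt1c1, Gria3, Ctsc, Ccl9, Rassf4 and Pld4. Csf1r, the receptor for the monocyte growth factor, stood at 52.7, 27.6 and 49.7 CPM in members and at 2.83, 3.30 and 5.70 CPM elsewhere. The adhesion protein Emb stood at 493, 376 and 386 CPM against 64.4, 118 and 113 CPM. Of genes of later monocytes, the matrix protein Fn1 reached 2.14, 1.0 and 4.23 CPM and Vcan 0.147, 0.10 and 0.279 CPM. Not all such genes were this low: Cx3cr1 and S100a4, with values given below, stood higher than both in every library. Kit itself was at 29.4, 28.5 and 32.0 CPM. Once each cell had been thinned to 2000 UMIs, Irf8 was detected in 50.2%, 34.0% and 38.7% of members, against 1.66%, 1.15% and 0.623% of erythroid cells and 1.21%, 0.742% and 0.477% of neutrophil progenitors (unthinned, 93.9%, 85.0% and 89.2% of members). Cebpe went the other way, with 7.20%, 9.45% and 3.65% of members and 51.4%, 55.5% and 48.2% of neutrophil progenitors.

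Some transcripts of other cell types were present. Summed over 10 lists of other cell types, the lists stood lower in members than in other kept cells in every library for B lineage, erythroid, megakaryocyte, basophil and mast, eosinophil, macrophage and mature neutrophil genes. The T and NK list was higher in unchallenged members (416 against 369 CPM), where Nkg7, a granule membrane gene, gave 405 CPM. The plasmacytoid list was higher in members of all 3 libraries, at 309, 425 and 245 CPM against 218, 399 and 224 CPM. Its highest marker in members was Bst2, an interferon-responsive gene, at 241, 342 and 139 CPM. The conventional dendritic list stood at 29.9, 21.4 and 41.6 CPM against 30.7, 37.3 and 43.3 CPM, with Flt3 as its highest marker. Siglech was at 0.147, 0.0334 and 0.279 CPM and Cd74 at 4.57, 5.75 and 6.28 CPM in members.

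The libraries held 119646078, 135079828 and 95522747 UMIs over 9684, 9060 and 8923 barcodes. Between 103 and 125 barcodes occurred in a pair of libraries, and 65 members had a barcode that another library also held. Scrublet called 1.92%, 3.59% and 3.0% of members doublets. These were kept. Leaving them or the shared barcodes out changed no count of member cells or of genes past 2-fold by as much as 1.5 times. The members differed in depth: their median was 21315 UMIs in the unchallenged library, 27672 after 1 challenge and 16767 after rechallenge, against 10627, 11148 and 9330 in other kept cells. Median mitochondrial shares were 3.06%, 2.83% and 4.57%.

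Monocyte progenitors made up 6.78% (6.27 to 7.31) of kept cells in the unchallenged library, 12.2% (11.5 to 12.9) after 1 challenge and 14.4% (13.7 to 15.2) after rechallenge. These are exact Clopper-Pearson 95% intervals, which cover counting error only. The rechallenged share was the highest and the unchallenged share the lowest, and the intervals did not overlap. Much of the gap between the unchallenged and the challenged libraries went with the number of cells above the Camp and Ngp limit. Over kept cells below that limit the shares were 13.2% (12.2 to 14.2), 14.5% (13.7 to 15.3) and 18.4% (17.5 to 19.4). The gap between the challenged once and the rechallenged library did not narrow there. A fixed minimum of 5 UMIs is easier to reach in a deeper cell, so the choice also depends on depth. With a minimum of 500 CPM of the rule genes (and at least 2 UMIs) the shares were 5.22%, 5.02% and 10.8%. On cells thinned to 2000 UMIs, with at least 2 rule UMIs, they were 3.57%, 3.55% and 8.29%. In these 2 versions the challenged once share was not above the unchallenged share, while the rechallenged share was the highest under each of the 5 versions plotted. A share among Kit-enriched cells also depends on how the enrichment ran in each library, which was not tested.

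**Figure D1:**
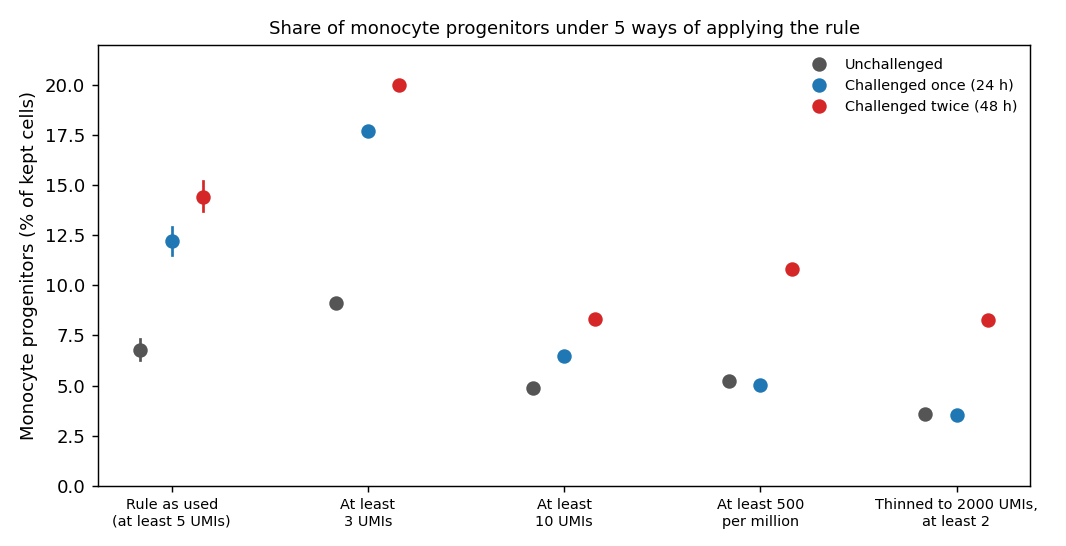
Percent of kept cells that were monocyte progenitors (vertical axis) in the 3 libraries under 5 ways of applying the rule (horizontal axis). Bars on the rule as used are exact 95% intervals for counting error. The rechallenged library is highest in each column, while the challenged once library leads the unchallenged one with minimums of 3, 5 and 10 UMIs on whole cells and not with the 2 versions that allow for depth.

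Cells next to the threshold had less of the other marker genes than the members as a whole. In the unchallenged library 96 cells had exactly 4 rule UMIs and 57 had exactly 5, with Irf8 at 115 and 150 CPM. After 1 challenge 176 cells had 4 and 156 had 5, with Irf8 at 83.7 and 90.8 CPM. After rechallenge 194 had 4 and 138 had 5, with Irf8 at 105 and 149 CPM. Klf4 in cells with exactly 5 rule UMIs was at 1.0, 2.47 and 14.3 CPM, below its level over all members in every library. The unchallenged and challenged once values, from 1 and 10 UMIs, were also below the 3.41 and 3.77 CPM of all other kept cells. The rechallenged value was above the 5.49 CPM of other kept cells. Cells just inside the threshold had somewhat more Irf8 than those just outside it, and both had less than the members as a whole. All 3 rule genes were detected in 54.7%, 54.9% and 70.5% of members, and Ms4a6c alone in 99.4%, 95.8% and 94.7%. Ccr2 gave 7.98%, 15.3% and 19.6% of the rule UMIs. In the last 300 bases of its transcripts Ms4a6c shares 12.8% of its 31-base words with other genes, most with Ms4a6b. The limits removed 42, 87 and 74 cells for class II genes and 34, 10 and 25 for Camp and Ngp. The Siglech limit touched 2, 1 and 4 cells and the C1q limit 2, 10 and 7, of 703, 1159 and 1336 cells with at least 5 rule UMIs.

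Members were spread along the azurophil granule range. Mpo, Elane, Prtn3 and Ctsg together had a median of 14470 CPM in unchallenged members, 12519 after 1 challenge and 8961 after rechallenge. Members at 20000 CPM or more were 25.8% (22.4 to 29.4), 14.3% (12.2 to 16.5) and 3.16% (2.26 to 4.30) of the library's members. Those below 2000 CPM were 5.28% (3.66 to 7.34), 6.24% (4.86 to 7.87) and 11% (9.33 to 12.9). The rechallenged members were thus shifted towards low granule transcripts. The levels form 1 continuous range, and 177, 239 and 111 members lay within 20% of the upper border and 21, 29 and 38 within 20% of the lower one.

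**Figure D2:**
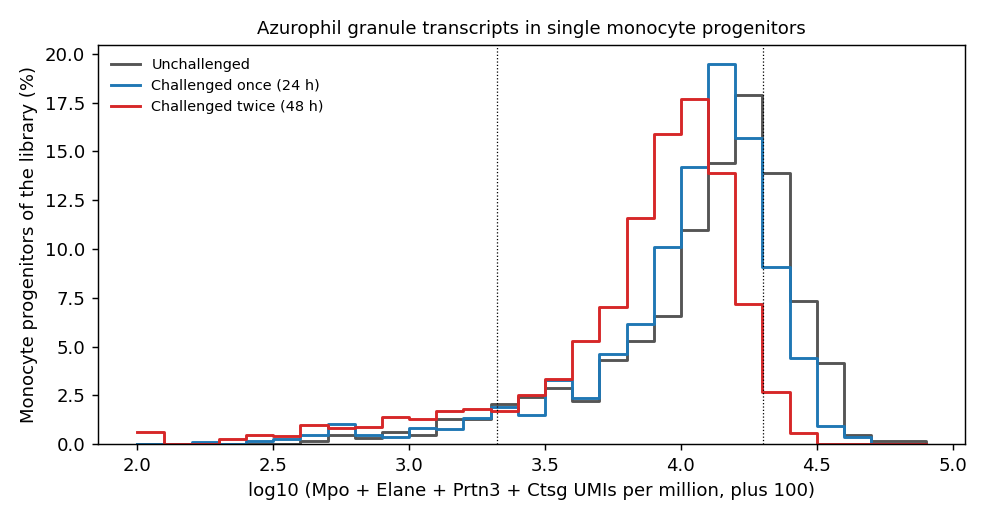
Percent of each library's monocyte progenitors (vertical axis) by the log10 of summed Mpo, Elane, Prtn3 and Ctsg CPM plus 100 (horizontal axis). Dotted lines mark 2000 and 20000 CPM. The rechallenged curve lies to the left of the other two, with 3.16% of its members beyond the right line against 25.8% of unchallenged members.

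Other genes differed along this range within each library. Elane, a serine protease, went from 212 CPM below 2000 CPM to 10599 CPM at 20000 or more in unchallenged members, which the ranges fix by construction. Measures not used for the ranges also differed. Ly6c2 was at 315 and 4890 CPM, the neutrophil branch factor Cebpe at 16.3 and 93.9 CPM and the progenitor gene Ms4a3 at 34.6 and 1106 CPM in the lowest and highest unchallenged range. Flt3, a receptor of early and dendritic progenitors, ran the opposite way with 169 and 2.31 CPM, and Cd34 with 277 and 55.2 CPM. In the other libraries these 5 genes had the same order of lowest and highest range: Flt3, for instance, was at 92.6 and 0.722 CPM after 1 challenge and at 140 and 1.33 CPM after rechallenge. The lowest range held other genes after rechallenge. There S100a6 was at 549 CPM against 95.7 CPM in the unchallenged and 90.8 CPM in the challenged once library, S100a4 at 188 against 67.2 and 36.5 CPM, Lyz2 at 972 against 535 and 177 CPM, and Fn1 at 32.7 CPM against 0 UMIs in both others. These ranges hold only 33, 66 and 136 cells.

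Among the regulators, Irf8 was lower after challenge. Its ratio on the log2 scale, taken after adding 10 CPM to each side, was -0.70 after 1 challenge and -0.59 after rechallenge, both against the unchallenged library. Without the added CPM these are folds of 0.608 (exact 95% interval for counting error 0.587 to 0.630) and 0.657 (0.633 to 0.681). Choosing the members by at least 500 CPM of the rule genes made them -0.30 and -0.55, a choice that changes both the depth dependence and the number of members (434 in place of 1058 after 1 challenge). Klf4 was lowest after 1 challenge and highest after rechallenge, with a log2 ratio of 0.92 between the 2 challenged libraries (0.60 with members chosen by CPM). Spi1 was at 239, 223 and 153 CPM and Cebpa, which opens the myeloid path, at 74.5, 55.3 and 36.6 CPM, both lowest after rechallenge. Cebpe was at 47.2, 51.7 and 26.6 CPM, and Gfi1 was low throughout, at 8.33, 11.2 and 13.4 CPM. Of 16 measured fate regulators, none was at least 2-fold higher or lower in any of the 3 comparisons once 10 CPM had been added to each side. Of all genes tested, 0.273% were for challenged once over unchallenged, 0.791% for rechallenged over unchallenged and 1.11% for rechallenged over challenged once. A count of none among 16 genes therefore says little of regulators. Adding 10 CPM makes ratios smaller, most of all in low genes. By the CPM alone, Klf4 between the challenged libraries and Cebpa between the unchallenged and rechallenged ones differed by more than 2-fold.

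Csf1r was lower after 1 challenge than in the other libraries, with a log2 ratio of -0.74 (-0.35 with members chosen by CPM) against the unchallenged library. Cx3cr1, a chemokine receptor of later monocytes, followed it with 17.0, 8.16 and 17.5 CPM. Il6st, the signalling chain shared by receptors of the interleukin 6 family, was highest after rechallenge at 36.3 CPM against 16.7 and 14.7 CPM. The integrin chain Itgal was at 29.7, 20.6 and 46.0 CPM. Cd34 was highest in unchallenged members, at 113 CPM against 75.3 and 63.4 CPM. Of 19 listed cytokine receptor genes 16 to 17 were measured, and of 17 migration genes 14 to 16. With 10 CPM added to each side, none was past 2-fold in any comparison, where 0.273%, 0.791% and 1.11% of all genes were. By the CPM alone, Il6st, Itgal and Cx3cr1 each differed by more than 2-fold between some libraries. The list medians were -0.25 and -0.32 after 1 challenge, 0.06 and 0.03 for rechallenged over unchallenged, and 0.22 and 0.25 for rechallenged over challenged once.

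**Figure D3:**
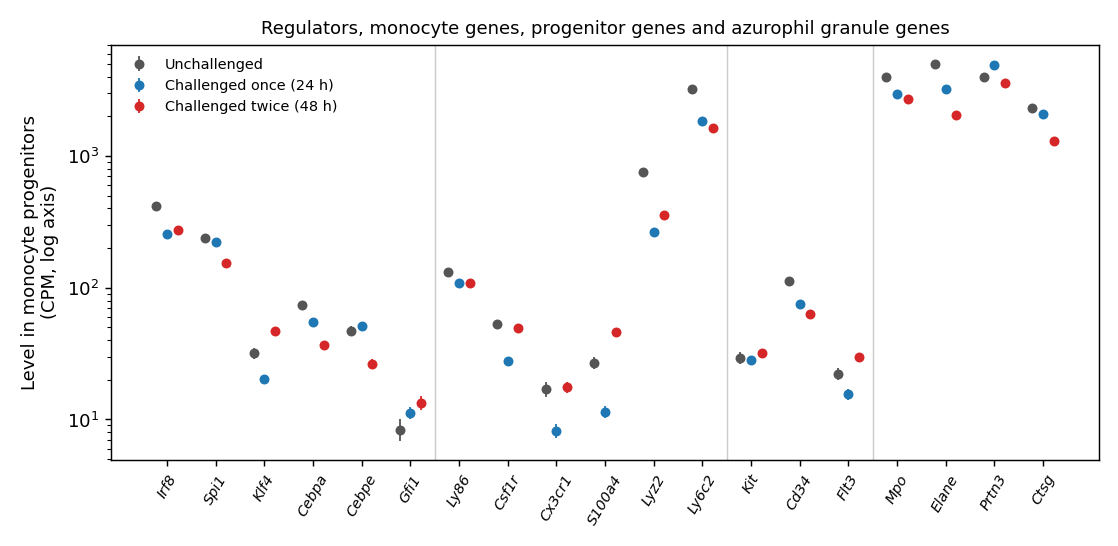
Levels in monocyte progenitors (CPM, log axis) of 19 genes in the 3 libraries, with exact Poisson 95% intervals, grouped from left to right as regulators, monocyte genes, progenitor genes and azurophil granule genes. Irf8 is highest in unchallenged members at 417 CPM, while Csf1r, Cx3cr1 and S100a4 are lowest after 1 challenge.

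After 1 challenge, 26 of 9541 genes (0.273%) were past 2-fold against the unchallenged library, with 13 higher (0.136%) and 13 lower (0.136%). A gene was measured where both libraries together had 100 or more of its UMIs. Past 2-fold is meant throughout on the scale with 10 CPM added to each side. The largest higher ratio was that of Saa3, an acute phase protein, from 1.40 (0.843 to 2.19) to 49.1 (46.6 to 51.6) CPM, and the rechallenged library had 29.2 (26.9 to 31.5) CPM. The log2 ratio after 1 challenge was 2.37 and the fold 35.0 (22.4 to 58.4). Saa3 lies on chromosome 7 at 46711998 to 46715700 (GRCm38), and 17.7% of the words at its 3 prime end occur in other transcripts. At 2000 UMIs per cell it was detected in 0.320%, 7.94% and 4.95% of members and in 0, 13.7% and 7.40% of neutrophil progenitors, where its level was 0.995, 115 and 50.9 CPM.

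Ifitm1, a membrane protein of the interferon-induced transmembrane family, was at 117, 530 and 470 CPM. Both challenged libraries stood well above the unchallenged one, with log2 ratios of 2.09 and 1.92. The share of members with a Ifitm1 UMI at equal depth was 19.5%, 47.0% and 48.3%. Neutrophil progenitors had lower levels, 20.7, 84.4 and 51.0 CPM, while erythroid cells, at 156, 211 and 106 CPM, were above members in the unchallenged library and below them in the others.

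Among the other genes higher after 1 challenge, Wfdc17 went from 15.6 to 56.6 CPM, the chemokine Ccl5 from 7.30 to 32.8 CPM and the stem cell antigen Ly6a from 13 to 46.1 CPM. Wfdc17 was also higher in erythroid cells, at 2.13, 36.2 and 40.3 CPM. Fkbp11 and Creld2, both of the endoplasmic reticulum, went from 30.9 to 91.3 and from 69.2 to 159 CPM. The cytokine Mif, of whose 3 prime words 58.0% lie in other genes, went from 784 to 1667 CPM, and the mitochondrial protein Chchd10 from 72.4 to 163 CPM. Prss34, a basophil protease, went from 8.77 to 29.6 CPM, and beside it the basophil gene Mcpt8 from 23.4 to 44.2 CPM. The summed basophil and mast cell list was 85.6 and 116 CPM in members, and its part in the Prss34 value was not tested. With members chosen on thinned cells, 6 of the 13 higher genes and 9 of the 13 lower genes kept their call. Ccl5 (0.61), Creld2 (0.95), Wfdc17 (0.74), Prss34 (0.74), Chchd10 (0.83) and Hspa1b (0.53) were among those then below 2-fold.

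Specific granule genes were lower after 1 challenge. Of 12 measured, 5 were past 2-fold in that direction and none in the other, with a median log2 ratio of -0.93 against 0.05 over all genes tested. Of all genes tested, 0.136% were past 2-fold lower and 0.136% higher. Ltf, which codes for lactoferrin, was at 128 CPM in unchallenged and 34.0 CPM in challenged once members. S100a9 went from 3088 to 1118 CPM, S100a8 from 3963 to 1819 CPM, Ifitm6 from 67.8 to 22.6 CPM and Lcn2 from 305 to 143 CPM. Cells of another lineage had less of them as well: in erythroid cells Ltf went from 211 to 45.7 CPM, S100a9 from 4994 to 1224 CPM and Camp with Ngp from 3858 to 625 CPM (in members, from 2266 to 548 CPM). Ltf was detected in 26.4% and 4.31% of erythroid cells and in 23.4% and 3.88% of members at 2000 UMIs, so its share in members was not above that in erythroid cells.

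Monocyte identity genes were on the whole lower after 1 challenge: 18 of 22 measured members had a ratio below 0, 3 were past 2-fold lower, and the median was -0.49. Over all genes tested 3711 of 9541 were below 0, 0.136% were past 2-fold lower and the median was 0.05. Lysozyme, Lyz2, was at 759, 266 and 354 CPM, Tyrobp, a signalling adaptor, at 822, 404 and 625 CPM, and the Fc receptor chain Fcer1g at 602, 281 and 447 CPM. Lyz2 also went from 464 to 86.8 CPM, Tyrobp from 74.5 to 32.2 CPM and Fcer1g from 62.6 to 30.2 CPM in erythroid cells. 34.1% of the 3 prime words of Lyz2 lie in Lyz1. Ly6c2, whose surface product marks inflammatory monocytes, was at 3256, 1849 and 1623 CPM, and 50.1% of its 3 prime words lie in other genes, most in Ly6c1. With members chosen by CPM the list's median was -0.20, that of Lyz2 -1.04 and that of Tyrobp -0.51. What free RNA and the depth of the choice add to these values was not tested further.

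Chaperone genes were on the whole higher after 1 challenge. For 16 measured genes of the endoplasmic reticulum list the median log2 ratio was 0.49, 15 were above 0 and 1 was past 2-fold. For 10 measured heat shock genes it was 0.48, none was below 0 and 1 was past 2-fold. Over all genes tested the median was 0.05, 5830 of 9541 were above 0 and 0.136% were past 2-fold higher. Hspa5, the main chaperone of the endoplasmic reticulum, was at 502, 908 and 525 CPM, Sdf2l1 at 436, 802 and 333 CPM and Calr at 1285, 1917 and 1101 CPM. Hspa1b was at 10.0, 31 and 2.79 CPM, Hsph1 at 58.8, 115 and 39.4 CPM and Hspd1 at 333, 597 and 279 CPM. In each of these 6 genes the challenged once library was the highest. Neutrophil progenitors had list medians of 0.69 and 0.68, and erythroid cells 0.09 and 0.09.

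**Figure D4:**
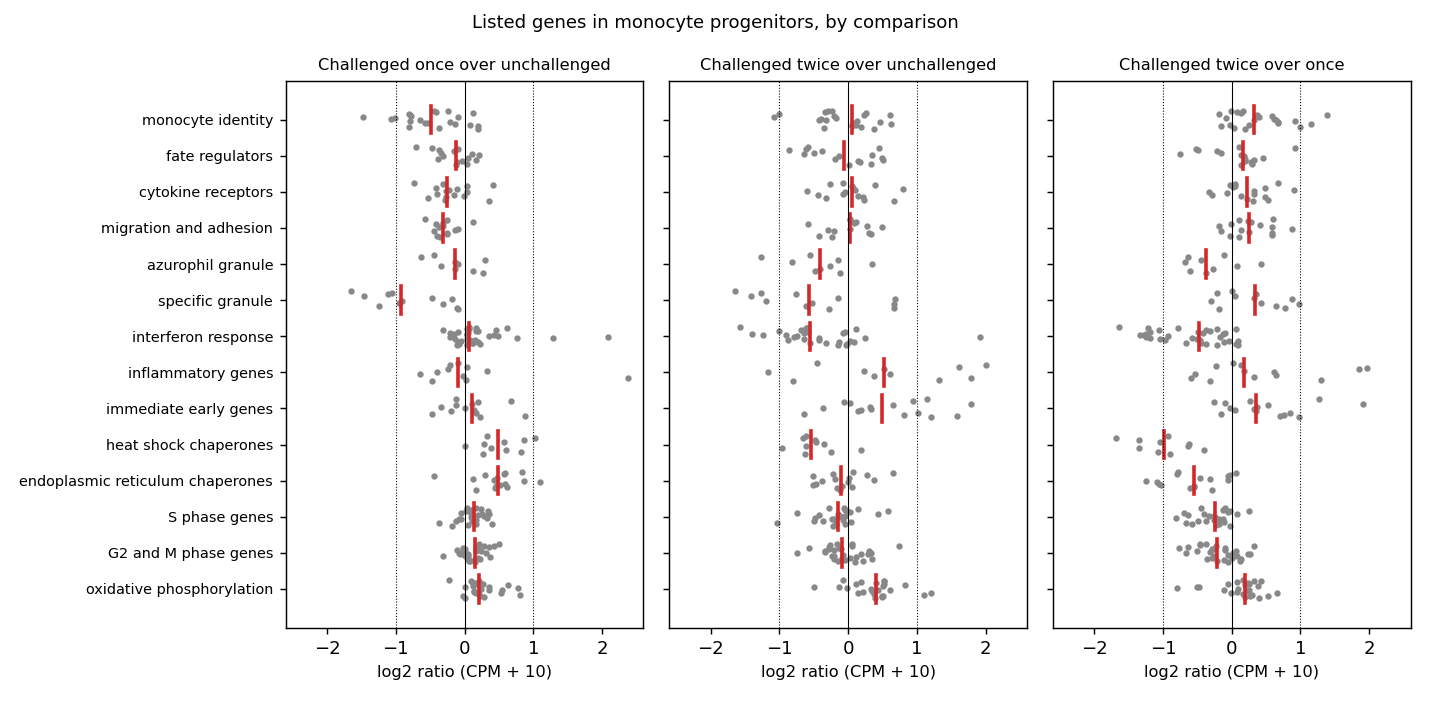
Log2 ratios (horizontal axis, after adding 10 CPM) of the measured genes of 14 lists in monocyte progenitors, 1 panel per comparison. Grey points are genes, red bars are list medians and dotted lines mark 2-fold. Heat shock genes lie right of 0 after 1 challenge (median 0.48) and left of 0 for rechallenged over challenged once (-0.99), where interferon response genes also lie left (-0.47).

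Rechallenged against unchallenged members, 73 of 9229 genes (0.791%) were past 2-fold, 36 higher (0.390%) and 37 lower (0.401%). Scaling the libraries by the median of gene ratios moves all log2 ratios of this comparison by 0.16, those of rechallenged over challenged once by 0.17 and those of challenged once over unchallenged by -0.07. The split then becomes 47 higher and 20 lower here, 49 and 34 for rechallenged over challenged once, and 11 and 15 after 1 challenge.

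Chemokine genes were among the higher ones. Ccl3, a chemokine that draws monocytes and neutrophils, was at 10.6 (8.95 to 12.5) CPM in unchallenged members, 11.1 (9.97 to 12.4) after 1 challenge and 72.5 (69.0 to 76.2) after rechallenge. The first 2 libraries overlapped within counting error and the rechallenged one was far above both, at a log2 ratio of 2.00 and a fold of 6.83 (5.76 to 8.16) over the unchallenged one. Ccl4, a close relative of Ccl3, was at 14.2 (12.3 to 16.4), 10.5 (9.40 to 11.8) and 63.8 (60.4 to 67.2) CPM, again with only the rechallenged library high. Ccl3 lies at 83647844 to 83649355 and Ccl4 at 83662584 to 83664683 on chromosome 11, and neither shared 3 prime words with another gene. At 2000 UMIs Ccl3 was detected in 2.72%, 2.17% and 11.8% of members and in 0, 0.186% and 0.477% of neutrophil progenitors. Ccl5, on the same chromosome, was at 7.30, 32.8 and 51.2 CPM, so it was already higher after 1 challenge.

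By azurophil range, rechallenged members below 2000 CPM had 146 CPM of Ccl3 and 235 CPM of Ccl4, and those at 20000 or more had 25.3 and 18.7 CPM. In each range the rechallenged library was above the unchallenged one (34.6 and 6.35 CPM of Ccl3 in the same ranges). Under all alternatives tried the log2 ratio of Ccl3 over unchallenged stayed between 1.80 and 2.66 and that of Ccl4 between 1.44 and 2.09.

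Of 16 measured immediate early genes, which respond within minutes to signals and also to handling, 5 were at least 2-fold higher after rechallenge and none lower (median 0.49 against -0.06 over all genes tested). In that comparison, rechallenged over unchallenged, 0.390% of all genes tested were higher and 0.401% lower. Jund, a subunit of the AP-1 factor, was at 40.3, 36.2 and 163 CPM and Fos, its partner, at 89.5, 81.4 and 210 CPM. The factors Klf2 and Klf6 were at 17.8, 41.1 and 73.1 CPM and at 35.8, 43.7 and 95.6 CPM, and the phosphatase Dusp1 at 26.0, 30.5 and 62.8 CPM. Jun was at 110, 127 and 106 CPM and Junb at 31.8, 35.2 and 32.4 CPM. Jund was also higher in neutrophil progenitors, at 20.3, 15.8 and 95.9 CPM. Handling time and cell stress before capture were not tested, and the median mitochondrial share, 3.06%, 2.83% and 4.57%, was highest in the rechallenged members.

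Inflammatory genes had 4 of 11 measured members higher and 1 lower after rechallenge (over all genes tested, 0.390% and 0.401%), with a median of 0.52. The higher ones were Ccl3, Ccl4, Saa3 and Zfp36, which codes for an RNA-binding protein that destabilises cytokine transcripts and stood at 18.6, 19.0 and 61.5 CPM. The lower one was Nfkbia, the inhibitor of NF-kB, at 72.8, 42.9 and 26.7 CPM. Classical cytokines were near the limit of detection: Il1b reached 2.23 CPM, Tnf 2.88 CPM and Il6 0.221 CPM in the highest of the 3 libraries.

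The remaining higher genes named by their ratio were Retnlg, Pmaip1 and Gzma. Retnlg, a gene of late neutrophils, was at 19.3, 23.1 and 92.9 CPM, beside 26.6, 17.3 and 30.8 CPM in neutrophil progenitors and 41.5, 43.2 and 69.5 CPM in erythroid cells, and at equal depth it was detected in 6.08% of rechallenged members and 7.17% of rechallenged erythroid cells. Pmaip1, a death-promoting Bcl2 family member, was at 4.28, 7.59 and 33.4 CPM. Gzma, a granzyme of T and NK cells, was at 2.65, 5.21 and 27.0 CPM. The whole T and NK list was at 416, 333 and 376 CPM, of which Nkg7, also on the azurophil granule list, gave 405, 315 and 334 CPM. The rest of the list, with Gzma in it, was small and was highest after rechallenge. In that library 8 of the 10 markers were below 10 CPM and 1 was at 0. The part of T and NK cells in the Gzma value was not tested.

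Elane, the protease neutrophil elastase, was the azurophil gene with the largest difference, at 5011, 3231 and 2069 CPM. Its log2 ratio for rechallenged over unchallenged was -1.27, while Mpo was at -0.55, Ctsg at -0.82 and Prtn3 at -0.15. In neutrophil progenitors, which were chosen partly by Elane, it was at 16524, 11928 and 10651 CPM, a log2 ratio of -0.63. The lower genes also included Car1 (38.3, 21.1 and 9.58 CPM) and Car2 (57.3, 43.7 and 18.1 CPM), which mark erythroid cells, and the B lineage gene Vpreb3 (25.8, 14.1 and 4.79 CPM). The summed B lineage list in members was 137, 91.1 and 49.2 CPM and the erythroid list 222, 140 and 239 CPM. Globin transcripts were highest in rechallenged members, at 105, 57.8 and 369 CPM. The part of free RNA in these values was not tested.

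Interferon response genes separated the rechallenged members from both other libraries. Against the unchallenged library 3 of 30 were past 2-fold downwards and Ifitm1 upwards, with a median of -0.56. There 0.401% of all genes tested were lower and 0.390% higher, with a median of -0.06. Against the challenged once library 10 of 34 were lower and none higher (median -0.47 against -0.09 over all genes tested). In that comparison 108 of 9761 genes (1.11%) were past 2-fold, 33 higher (0.338%) and 75 lower (0.768%). Isg15, a ubiquitin-like protein attached to other proteins after interferon, was at 26.4 (23.7 to 29.3), 28.0 and 2.23 (1.65 to 2.96) CPM. The challenged once library was 1.06-fold (0.938 to 1.21) the unchallenged one, and the rechallenged one was far lower, at a log2 ratio of -1.57 and a fold of 0.0846 (0.0612 to 0.115) against the unchallenged one.

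Usp18, which removes Isg15 from proteins, was at 11, 14.0 and 0.512 CPM. Irf7, the factor that amplifies interferon production, was at 7.52, 16.8 and 1.49 CPM, Rtp4 at 13.2, 21.3 and 2.47 CPM and Xaf1 at 25.4, 26.1 and 4.98 CPM. Bst2, which tethers budding viruses, was at 241, 342 and 139 CPM, and Ifi27l2a at 146, 131 and 49.5 CPM. All 6 were lowest in the rechallenged members. Ifitm1 was the exception noted above, and Gbp2 (4.2, 3.64 and 4.51 CPM), Gbp7 (21.7, 26.2 and 23.5 CPM) and Samhd1 (39.0, 35.3 and 38.1 CPM) differed little. After 1 challenge the list as a whole was near the unchallenged level (median 0.06, with 2 of 35 higher: Ifitm1 and Ly6a). Over all genes tested that median was 0.05, and 0.136% were past 2-fold higher. In other cells of the same libraries the medians for rechallenged over challenged once were -0.82 in neutrophil progenitors, -0.93 in erythroid cells and -0.56 in class II cells.

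Promoters are shown for Isg15 and Bst2, since both were at least 2-fold lower in rechallenged than challenged once members and hold the motif described next. The interferon-stimulated response element was searched as GAAANNGAAA on both strands of RefSeq promoters (GRCm38.p6, 250 bases before to 50 after the start site). It occurs in 16 of 27 listed genes that have a promoter in the table, against 3.99% of 27025 genes. Of the 10 genes lower in rechallenged than challenged once members, 6 have a promoter there and 3 of these hold the motif (Isg15, Bst2 and Ifitm3). The 160 bases before the start sites of Isg15 (chr4:156200819-156200978, minus strand) and Bst2 (chr8:71537473-71537632, minus strand) follow, with matches in capitals.
Isg15: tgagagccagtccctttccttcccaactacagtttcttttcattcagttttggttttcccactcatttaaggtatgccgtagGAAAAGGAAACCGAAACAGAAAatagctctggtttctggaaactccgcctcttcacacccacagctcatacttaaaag
Bst2: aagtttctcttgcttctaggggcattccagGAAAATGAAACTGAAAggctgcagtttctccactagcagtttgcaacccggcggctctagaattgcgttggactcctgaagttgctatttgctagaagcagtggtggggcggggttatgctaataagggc
The capitals in Isg15 are 3 overlapping matches and those in Bst2 are 2, and neither overlaps a match of the other motifs searched. A match describes the letters only. The list was compiled from genes known to respond to interferon, so its share of matches says nothing of these cells.

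Chaperones were lower in rechallenged than in challenged once members. For 10 measured heat shock genes the median was -0.99, 5 were past 2-fold and none was above 0. For 16 genes of the endoplasmic reticulum list it was -0.55 with 4 past 2-fold. Over all genes tested the median was -0.09, 3559 of 9761 were above 0 and 0.768% were past 2-fold lower. Hspa1b had the lowest ratio of the chaperone genes in this comparison, -1.68. Dnaja1 was at -1.35 (255, 337 and 126 CPM) and Hsph1 at -1.34. Against the unchallenged library the heat shock median was -0.54 with none past 2-fold, and that of the endoplasmic reticulum list -0.10, so for the latter the challenged once library was the one apart. There 0.401% of all genes tested were past 2-fold lower and their median was -0.06. In neutrophil progenitors the medians for rechallenged over challenged once were -1.14 and -0.59 and in erythroid cells -0.19 and -0.12.

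The heat shock element was searched as GAANNTTCNNGAA and the endoplasmic reticulum stress element as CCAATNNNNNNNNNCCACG, in the same promoters and on both strands. The first occurs in 3 of 8 listed heat shock genes against 0.662% of all genes, and the second in 7 of 14 listed endoplasmic reticulum genes against 0.137%. Both lists were compiled from known chaperone genes, so these shares say nothing of these cells. Of 5 heat shock genes lower in rechallenged than challenged once members, 4 have a promoter there and 2 hold the motif (Hsph1 and Hspd1). Of 4 such endoplasmic reticulum genes, 3 have a promoter and 1 holds the motif (Creld2). Promoters are given for Hspd1, the mitochondrial chaperonin (chr1:55087933-55088092, minus strand), and for Hspa5 (chr2:34771930-34772089, plus strand) and Creld2 (chr15:88819486-88819645, plus strand), 160 bases each, with the matches in capitals.
Hspd1: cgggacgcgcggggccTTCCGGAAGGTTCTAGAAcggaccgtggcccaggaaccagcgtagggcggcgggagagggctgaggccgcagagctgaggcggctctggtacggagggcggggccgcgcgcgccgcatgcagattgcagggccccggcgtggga
Hspa5: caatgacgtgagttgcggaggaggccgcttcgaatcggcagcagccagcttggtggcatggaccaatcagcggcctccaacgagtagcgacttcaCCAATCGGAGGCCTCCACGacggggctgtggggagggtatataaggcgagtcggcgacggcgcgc
Creld2: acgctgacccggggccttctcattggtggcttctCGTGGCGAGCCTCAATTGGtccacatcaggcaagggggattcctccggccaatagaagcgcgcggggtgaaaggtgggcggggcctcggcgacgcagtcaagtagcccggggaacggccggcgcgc
Hspd1 holds 2 overlapping matches, Hspa5 one on the strand of the gene and Creld2 one on the opposite strand. Hspa5 was not past 2-fold in that comparison, and a match describes the letters only.

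Rechallenged members also had more of several monocyte identity genes than challenged once members: 3 of 23 were past 2-fold, none was in the other direction and the median was 0.33. Over all genes tested 0.338% were past 2-fold higher and the median was -0.09. S100a4, a calcium-binding protein of maturing monocytes, was at 26.9, 11.4 and 46.2 CPM, Ahnak at 15.3, 7.49 and 29.1 CPM and the lysosomal protein Psap at 329, 183 and 375 CPM. The challenged once library was lowest for all 3. S100a6, not a listed gene, was at 60.1, 35.7 and 151 CPM. Of the 3 prime words of S100a4 56.4% lie in an overlapping gene model, Gm42674. S100a4 and Ahnak were below 2 CPM in neutrophil progenitors and erythroid cells of every library. With members chosen by CPM, S100a4 had a log2 ratio of 1.18 and Ahnak of 1.14, while Psap had 0.72. Against the unchallenged library the list's median was 0.05, with 1 of 23 past 2-fold (Lyz2, lower), where 0.401% of all genes were lower. These medians differed along the azurophil range: among members below 2000 CPM they were 0.77 over challenged once and 0.78 over unchallenged, and at 2000 or more they were 0.18 and -0.20. Below 2000 CPM Lyz2 was higher, with a log2 ratio of 0.85 over unchallenged.

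Named genes lower in rechallenged than challenged once members included Srm, which makes spermidine, at 232, 321 and 97.6 CPM, and Eif5a, the translation factor modified with spermidine, at 1260, 1781 and 719 CPM. Fam136a was at 57.0, 98.6 and 27.7 CPM and the interferon-inducible Ifi202b at 20.5, 30.8 and 5.77 CPM. All 4 were lowest after rechallenge and highest after 1 challenge. In neutrophil progenitors Srm was at 194, 232 and 55.3 CPM and Eif5a at 1327, 1971 and 726 CPM. H2-T23, a class I gene with 31% shared 3 prime words, was at 84.0, 65.6 and 22.7 CPM in members and at 75.7, 93.7 and 21.8 CPM in erythroid cells.

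Some of the ratios named here were alike in other cell sets. Hist1h2ap, a histone gene whose 3 prime words all occur in other histone genes, was at 571, 132 and 1549 CPM in members, 404, 98.2 and 1308 CPM in neutrophil progenitors and 1065, 290 and 3270 CPM in erythroid cells. Gstp1 (50.1, 17.3 and 68.6 CPM), with 58.8% shared words, had the same order of libraries. Both are uncertain at the level of the single gene. Other ratios were larger in members than in the cells they were set beside: Ccl3 for rechallenged over unchallenged was 2.00 in members, 0.14 in neutrophil progenitors, 0.09 in erythroid cells and 0.96 in class II cells, and Ccl4 was 1.61, 0.23, 0.28 and 0.72. Klf6 was 1.21, 0.42, 0.03 and -0.43. Each is a difference between single libraries and whether it differs between cell types was not tested.

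**Figure D5:**
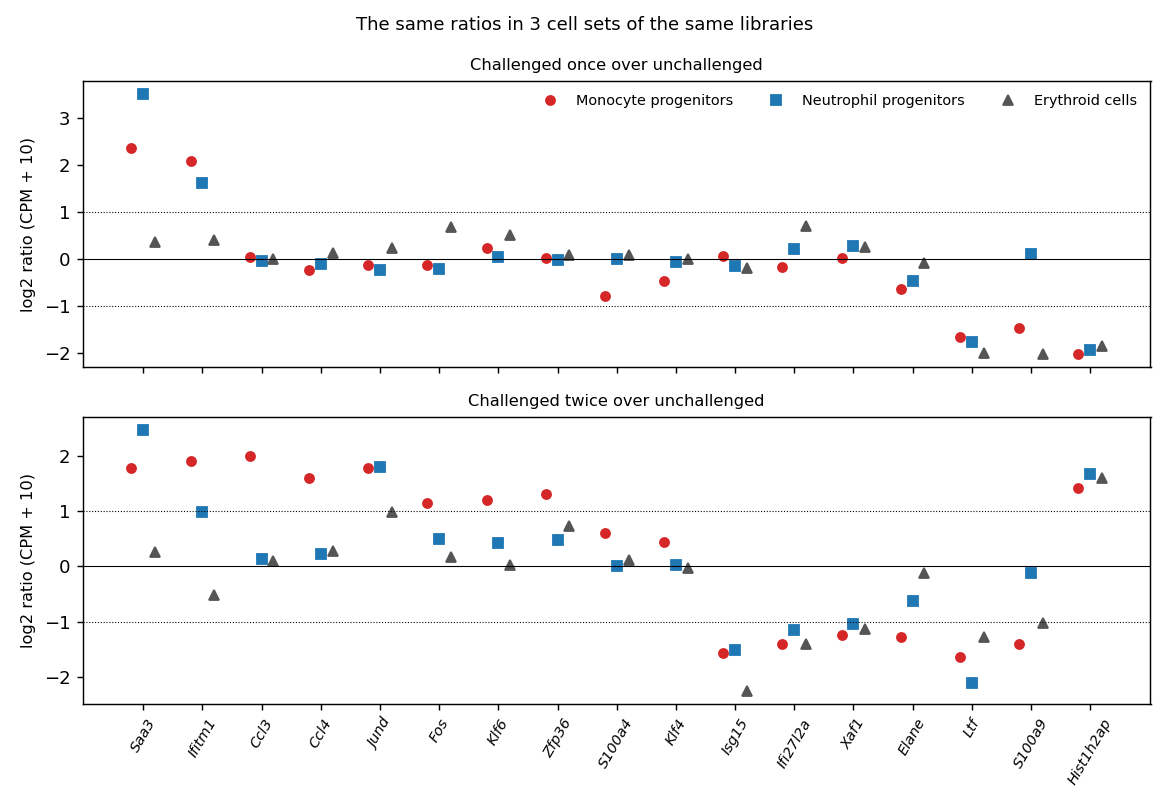
Log2 ratios (vertical axes, after adding 10 CPM) of 17 genes in monocyte progenitors, neutrophil progenitors and erythroid cells, challenged once (top) and rechallenged (bottom) over unchallenged, with dotted lines at 2-fold. After rechallenge Ccl3 and Ccl4 are at 2.00 and 1.61 in monocyte progenitors and at 0.14 and 0.23 in neutrophil progenitors, while Isg15 is low and Hist1h2ap moves alike in all 3 cell sets.

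Transcripts of cell cycle genes were detected in most members of each library, which alone does not show that a cell was dividing. At 2000 UMIs per cell, 88.3% (85.5 to 90.7), 93.8% (92.1 to 95.1) and 86.5% (84.4 to 88.3) had at least 2 UMIs of S phase genes, and 67.7% (63.9 to 71.3), 77.8% (75.2 to 80.3) and 69.5% (66.9 to 72.1) had at least 2 of G2 and M phase genes. The challenged once library was highest in both. Erythroid cells gave 90.9%, 85.9% and 88.8%, and 79.6%, 71.2% and 74.5%, so the order of libraries differed there. Mki67, a protein of dividing cells, was detected in 15.8%, 16.9% and 17.8% of members. The medians of the S phase and the G2 and M phase lists were 0.13 and 0.15 after 1 challenge, -0.15 and -0.09 for rechallenged over unchallenged, and -0.24 and -0.22 for rechallenged over challenged once. Ung, a DNA repair enzyme, was the 1 gene of 56 past 2-fold, lower in rechallenged than unchallenged members (53.8, 39.0 and 21.1 CPM). In that comparison 0.401% of all genes tested were past 2-fold lower.

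No measured gene for sensing microbes was past 2-fold with 10 CPM added to each side, which says little of genes as low as those named next. Tlr4, the endotoxin receptor, was at 2.36, 2.37 and 3.91 CPM, Tlr2 at 5.01, 5.15 and 7.81 CPM and Cd14, a co-receptor of Tlr4, at 3.76, 3.88 and 8.51 CPM. None of the 14 to 15 measured genes of that list was past 2-fold, and none of the 6 to 8 measured genes for phagocytosis and Fc receptors was. Since only 0.273%, 0.791% and 1.11% of all genes were past 2-fold in the comparisons, such counts in short lists say little. In the NADPH oxidase, Cybb was higher after rechallenge (57.2, 52.4 and 96.8 CPM) and Ncf4 lower (123, 83.2 and 56.7 CPM, past 2-fold against unchallenged). Cybb was also highest after rechallenge in neutrophil progenitors, at 66.6, 86.9 and 147 CPM.

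Among metabolic genes, few were past 2-fold. For 25 oxidative phosphorylation genes the medians were 0.21, 0.40 and 0.20 in the 3 comparisons, with 2 of 25 past 2-fold, both higher for rechallenged over unchallenged, where 0.390% of all genes were. These were Cox6a1 (361, 528 and 842 CPM) and Cox7b (277, 491 and 604 CPM), subunits of cytochrome c oxidase. The 16 glycolysis genes had medians of 0.24, -0.25 and -0.38, with 2 of 16 lower past 2-fold for rechallenged over challenged once, where 0.768% of all genes were. These were Ldha, lactate dehydrogenase A, at 461, 817 and 371 CPM, and Tpi1, triosephosphate isomerase, at 318, 426 and 187 CPM. Lysosomal enzymes had medians of -0.10, -0.16 and 0.17 with none past 2-fold. Antigen presentation genes had medians of -0.02, -0.36 and -0.24 and only H2-T23 past 2-fold. Of all genes, 0.273%, 0.791% and 1.11% were past 2-fold in the 3 comparisons.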

How the data were processed

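Kit-enriched bone marrow cells of 3 groups were profiled on the 10x Genomics 3 prime platform, per the labels' protocols, in 1 library a group. The deposited values are raw UMI counts per gene and barcode, made by the authors with Cell Ranger 3.0.0 against mm10, per the submitters' processing notes. Each table holds 31053 genes, and the smallest barcode total is 500 UMIs. Totals were 119646078, 135079828 and 95522747 UMIs.

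Kept cells had 500 or more UMIs, 300 or more genes and a mitochondrial share of up to 10%. Members followed the rule in the report. Their UMIs were summed per library and set to CPM, with exact Poisson 95% intervals. Log2 ratios had 10 CPM added on each side and used genes with at least 100 UMIs in both libraries together. A gene was called past 2-fold on that scale, and the 12 genes of the rule were left out of counts. Shares of cells with a UMI came from cells thinned to 2000 UMIs (seed 1), with Clopper-Pearson intervals. All intervals cover counting error only. Neutrophil progenitors had at least 20000 Mpo, Elane and Prtn3 UMIs per 1000000 and stayed below the Camp and Ngp limit, erythroid cells had at least 10 UMIs of Klf1, Gata1, Car1 and Car2, both with at most 1 rule UMI, and class II cells had at least 20 class II UMIs.

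Genes were named by rule: the 10 highest and 10 lowest ratios of each comparison, up to 5 of each of 21 lists, and a fixed set of markers. The genes leading members over other cells, and Vcan, Gbp2, Gbp7, Samhd1, Jun, Junb, Il1b, Tnf, Il6, Tlr4 and Mcpt8, were chosen after their values were seen. A few genes that the rule names are not reported here. The members and the lists were chosen with earlier results of these data known. Of 390 listed genes 1 is not in the tables. Scrublet in scanpy 1.11.5 called doublets at an expected rate of 6%, with numpy 2.4.6 and scipy 1.17.1. Shared 31-base words were counted in the last 300 bases of annotated transcripts, and gene positions are from GENCODE on GRCm38. Promoters are RefSeq's (GRCm38.p6). Alternatives covered cell filters, rule thresholds, doublets, shared barcodes, scaling, added CPM and the fold threshold.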

Additional observations from a re-analysis of the deposited data

How the results depend on the processing

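No paired analysis was possible because each group has 1 library. Of kept cells in the unchallenged, challenged once and rechallenged library, members were 9.14%, 17.7% and 20% with at least 3 rule UMIs and 4.89%, 6.49% (561 cells) and 8.31% (710 cells) with at least 10. They were 3.57%, 3.55% and 8.29% (315, 283 and 645 cells) on cells thinned to 2000 UMIs and 5.22%, 5.02% (434 cells) and 10.8% with at least 500 rule UMIs per 1000000. Without a mitochondrial limit the unchallenged share was 7.39%. Genes past the threshold, as higher and lower, for challenged once over unchallenged, rechallenged over unchallenged and rechallenged over challenged once, were 43 and 44, 117 and 192, and 110 and 298 with 1 CPM added. At 1.5-fold they were 78 and 83, 166 and 468, and 149 and 745, in the same order. Scaling by the median of gene ratios left 20 lower genes for rechallenged over unchallenged and 34 for rechallenged over challenged once. Among members below 2000 azurophil UMIs per 1000000, 21 genes were higher after 1 challenge, 56 lower for rechallenged over unchallenged, and 52 higher and 129 lower for rechallenged over challenged once. In those few cells the log2 ratios of Chchd10 (-0.15) and Tyrobp (0.08) after 1 challenge, of Klf6 (-0.04) and Lyz2 (0.85) for rechallenged over unchallenged, and the G2 and M phase median for rechallenged over challenged once (0.18) changed sign. The cause was not tested. Members with S phase genes were 97.8%, 99.6% and 97.4% thinned to 4000 UMIs, 99.7%, 99.9% and 99.1% not thinned, and 77.9%, 85.7% and 74.3% at 3 UMIs. Those with G2 and M phase genes were 84.1%, 93.1% and 88.2%, then 97.6%, 98.9% and 97.9%, then 53.4%, 64.5% and 53.4%. Over all alternatives, the ratios of the named and listed genes kept their direction and side of the threshold in 8685 cases. They moved past it in 287, fell below it in 98 and changed sign in 4. Of the 287, 136 came from lowering the threshold to 1.5-fold, where the ratios themselves did not change. Among all genes past 2-fold, the sign turned with at least 10 rule UMIs in 1 gene each for challenged once over unchallenged and rechallenged over challenged once, and below 2000 azurophil UMIs in 3 genes after 1 challenge and 4 for rechallenged over unchallenged. Choosing members on thinned cells or per 1000000 was added after seeing the data for the gene ratios.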
